A study of Homo sapiens with 6 samples.

Results

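The genes described here write, remove and read lysine acetylation. A list of 51 genes was taken in 3 classes: 17 writers (acetyltransferases), 14 erasers (deacetylases) and 20 readers (proteins with a bromodomain). Of these, 49 had a probe set with their symbol in the platform annotation, out of 17687 named genes on the array, and for each of them the probe set that averaged highest over the 6 arrays was used. NCOA3 and NAA10, both in the writer class, were not analysed here, which left 15 writers, 14 erasers and 20 readers. Only BAZ2B had more than 1 probe set.

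Transcript levels had been measured in HS578T, an established human breast carcinoma line, after stable transfection with the plasmid pcDNA 3. The EP300 group carried the plasmid with EP300 cDNA and the control group carried the empty plasmid, and both were selected and grown in G418. Pools held at least 200 clones, and each group was sampled as 3 cultures, with 1 array each. The labels do not give the level of the introduced protein. Whether the cultures of a group came from 1 pool or several is not stated, so limma p-values rest on the spread between these cultures. By limma each gene's variance is also drawn toward a value fitted over all probe sets. Its SEs, intervals and p-values are therefore not measures of that gene's own cultures alone.

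Acetyl groups on the lysines of histone tails loosen the contact of histones with DNA and create docking sites. Writers such as EP300 and CREBBP transfer the group from acetyl-CoA, zinc-dependent HDACs and NAD-dependent sirtuins take it off, and bromodomains bind the acetylated lysine and bring remodelling or transcription complexes to it. EP300 and CREBBP are close paralogs that serve as co-activators for many transcription factors. The comparison addressed here is whether cells given extra EP300 cDNA differ in transcripts of the rest of this machinery.

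The EP300 transcript, the natural check of the transfection, was not analysed here. All values are on the log2 scale of the authors' deposited table, in which the 6 arrays had medians from 4.46 to 4.50 and lower quartiles from 3.47 to 3.50. All 7 mesenchymal markers measured to check the labelled line read above the upper quartile of each array in both groups, as did 1 of 6 luminal markers (KRT8), 0 of 3 leukocyte and 0 of 3 endothelial markers, a rough check since levels of different probe sets cannot be compared. VIM had the same value on all arrays, and SPARC reached the ceiling of the array values on some. The other 6 mesenchymal markers were lower in EP300 cultures, 5 with groups apart, among them THY1 at -0.75 ± 0.20 (SE) and COL1A2 at -0.49 ± 0.22 (SE). Of all named genes 6.05% were apart and lower. Of the 6 luminal markers 4 were higher and 2 lower, with groups apart for 0. By limma none of the 7 mesenchymal markers passed the adjusted threshold, and the part of these marker differences in the results that follow was not tested. In bulk RNA, fewer cells expressing a gene and less RNA of it per cell cannot be told apart.

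No writer, eraser or reader passed the test. By limma, 0 of 49 members had an adjusted p below 0.05, as for 0% of all 21448 probe sets, and the lowest adjusted p among the members was 0.748. At an unadjusted limma p below 0.05 there were 3 members (6.12%), the writers KAT7 and GTF3C4 and the eraser HDAC3, all lower in EP300 cultures. The share over all named genes was 6.37% in either direction, so the members' share was near that background. Counting lower genes alone, the share over all named genes was 3.07%, below the members' 6.12%, a difference that was not tested. The cultures of the groups did not overlap for 6 members (12.2%), 5 lower and 1 higher, and for 12.2% of all named genes, 6.05% lower and 6.1% higher. For a gene whose groups do not overlap, the exact two-sided permutation p is 0.1, the smallest that 3 cultures against 3 allow. Among the 39 members whose mean lay above the array medians, the 3 members with an unadjusted limma p below 0.05 made 7.69%, against 7.62% of named genes at such levels.

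**Figure D1:**
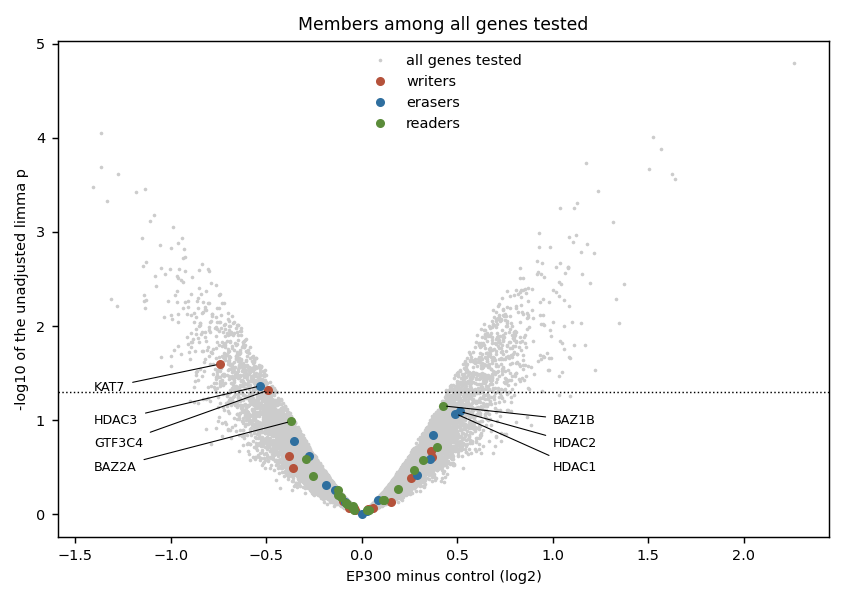
Each point is 1 gene, placed by its log2 difference (EP300 minus control, horizontal) and by -log10 of its unadjusted limma p (vertical). Grey points are the 17687 named genes, coloured points the 49 members by class, and the dotted line marks the unadjusted threshold. Only KAT7, HDAC3 and GTF3C4 of the members lie above the line.

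The sizes of the differences were small. Differences of members ran from -0.74 to 0.51, with 23 higher and 26 lower in EP300 cultures (50.3% and 49.7% of all named genes) and a median of -0.04, against a median of 0.0016 over all named genes. The median size regardless of sign was 0.15 for the members and 0.20 for all named genes. None of the 49 members differed by more than 2-fold, as did 0.447% of all named genes. For 39 members (79.6%) the 95% interval of the difference lay within a 2-fold change in either direction, against 78.2% of all named genes, and 31 of these 39 had a mean above the array medians. The background is unknown for all members. For the remaining 8, at lower levels, a narrow interval therefore does not bound the difference of the transcript. The other 10 intervals reached beyond 2-fold, 5 of them among writers, 4 among erasers and 1 among readers.

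**Figure D2:**
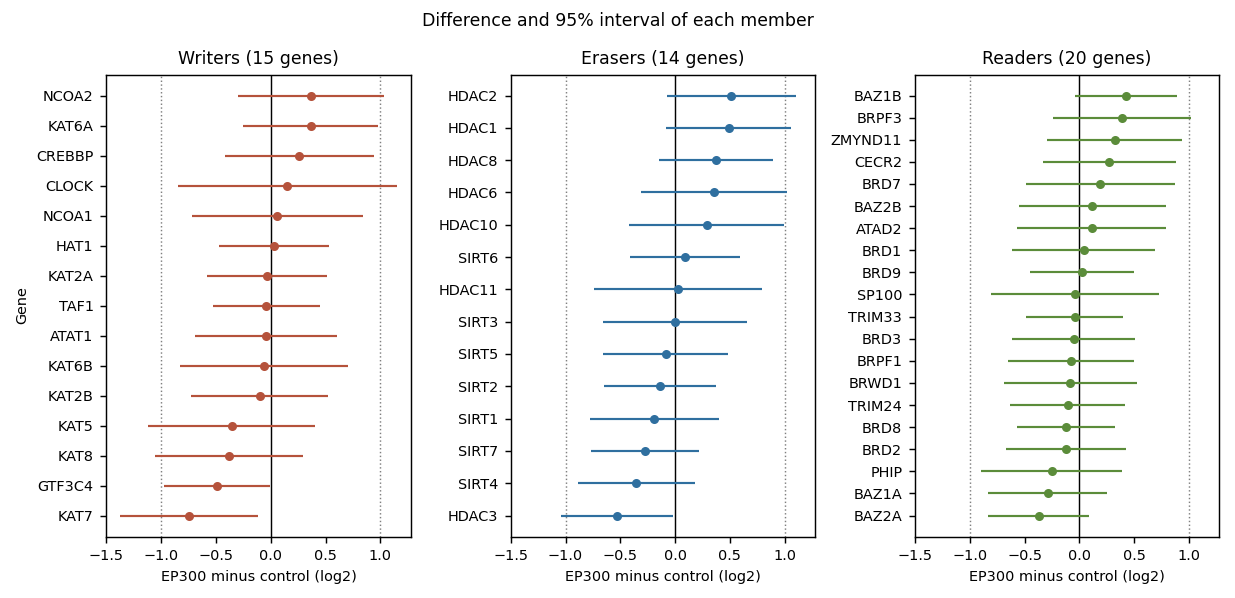
Points give the log2 difference (EP300 minus control) of each of the 49 members and lines its 95% limma interval, with writers, erasers and readers in separate panels and dotted lines at 2-fold. KAT7 at -0.74 and HDAC2 at 0.51 stand at the lower and upper ends, and 19 of 20 readers have an interval inside the dotted lines.

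Among the 15 measured writers, 6 were higher and 9 lower in EP300 cultures, with a median difference of -0.04 and none past the test. KAT7, also known as HBO1, is the acetyltransferase of the MYST family that acts on histones H3 and H4 around replication origins and genes. It read 6.91, 6.40 and 6.03 in the control cultures and 5.73, 5.35 and 6.02 in the EP300 cultures. Every EP300 culture lay below every control culture, but the highest EP300 value and the lowest control value nearly touched. The difference was -0.74 ± 0.28 (SE), or 1.67-fold lower, with an unadjusted limma p of 0.0255 and an adjusted p of 0.748. Without control replicate 1 it was -0.51 and without control replicate 3 it was -0.95.

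GTF3C4 encodes a subunit of transcription factor IIIC, which recruits RNA polymerase III, and was listed as a writer because acetyltransferase activity has been described for it. It read 7.57, 7.51 and 7.79 in control and 7.14, 7.34 and 6.92 in EP300 cultures. The groups were apart, with a gap smaller than the range of either group. The difference of -0.49 ± 0.22 (SE), 1.40-fold lower, had an unadjusted limma p of 0.0481 and an adjusted p of 0.765.

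CREBBP, the closest relative of EP300, read 9.65, 9.59 and 10.18 in control and 9.71, 9.81 and 10.69 in EP300 cultures. The groups overlapped, and EP300 replicate 3 was the high value. The difference was 0.26 ± 0.30 (SE), with a 95% interval of -0.42 to 0.94 (limma adjusted p = 0.915). Without EP300 replicate 3 it was -0.05, so its sign rests on that culture.

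The MYST relatives of KAT7 did not share its direction throughout. KAT6A, a MYST enzyme that acts in BRPF complexes, read 7.02, 6.37 and 6.75 in control and 6.60, 7.32 and 7.31 in EP300 cultures. This was 0.36 ± 0.27 (SE) higher, with EP300 replicate 1 inside the control range, and ran from 0.19 (without control replicate 2) to 0.60 (without EP300 replicate 1). KAT8, known as MOF and the main enzyme for lysine 16 of histone H4, read 4.07, 4.13 and 3.69 in control and 4.14, 3.64 and 2.98 in EP300 cultures. Its difference of -0.38 ± 0.30 (SE) came mainly from EP300 replicate 3, without which it was -0.08.

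KAT5, known as TIP60 and the catalytic subunit of the NuA4 complex, read 3.96, 4.02 and 4.96 in control and 3.47, 3.90 and 4.49 in EP300 cultures. The groups overlapped, and the difference of -0.36 ± 0.34 (SE) was -0.03 without control replicate 3. KAT5 and KAT8 had means below the array medians, and the background is unknown for all members. The 4 MYST members named so far had limma adjusted p of 0.748 (KAT7), 0.873 (KAT6A), 0.879 (KAT8) and 0.897 (KAT5).

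The nuclear receptor co-activator NCOA2 read 7.41, 7.86 and 7.38 in control and 8.26, 7.28 and 8.20 in EP300 cultures. EP300 replicates 1 and 3 were above every control culture and replicate 2 below them, for a difference of 0.37 ± 0.30 (SE) with a limma adjusted p of 0.882. It was 0.19 without EP300 replicate 1 and 0.68 without EP300 replicate 2. CLOCK, the circadian transcription factor, was the least repeatable member. It read 6.30, 7.15 and 5.48 in control and 5.74, 6.52 and 7.12 in EP300 cultures, and its pooled SD between cultures of a group, 0.766, was the highest of the 49. Its difference of 0.15 ± 0.45 (SE) was -0.26 without control replicate 3 and -0.18 without EP300 replicate 3.

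The other 7 measured writers differed by -0.10 to 0.06, with unadjusted limma p from 0.727 to 0.897. They were the SAGA and ATAC enzymes KAT2A (-0.03) and KAT2B (-0.10), the MYST enzyme KAT6B (-0.07), the co-activator NCOA1 (0.06), the TFIID subunit TAF1 (-0.04), HAT1 (0.03), which acetylates newly made histone H4, and ATAT1 (-0.04), which acetylates tubulin. HAT1 measured 12.20 ± 0.21 (SD, n = 3) in control and 12.23 ± 0.22 (SD, n = 3) in EP300 cultures, and its 95% interval ran from -0.47 to 0.54.

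Among the 14 erasers, 8 were higher and 6 lower, with a median difference of 0.01. The zinc-dependent HDACs and the sirtuins are given apart. Of the 7 HDACs in this class 6 were higher and 1 lower, with a median of 0.36. HDAC10 and HDAC11, among the 6, had means below the lower quartile of each array. Of the 7 sirtuins 2 were higher and 5 lower, with a median of -0.14. None passed the test, and no difference between these families was tested, because the split was made after the values were seen. The class IIa HDACs, also zinc-dependent, were kept in a partner list and are not in this count. They differed by -0.18 (HDAC4), 0.01 (HDAC5), 0.49 (HDAC7) and -0.25 (HDAC9).

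HDAC1, HDAC2 and HDAC3 are the nuclear class I deacetylases. HDAC1 and HDAC2 work in the SIN3, NuRD and CoREST corepressor complexes, and HDAC3 works in separate corepressor complexes. HDAC3 read 8.30, 7.95 and 8.06 in control and 7.31, 7.86 and 7.55 in EP300 cultures. Every EP300 culture lay below the control cultures, with EP300 replicate 2 closest to them. The difference of -0.53 ± 0.23 (SE), 1.45-fold lower, had an unadjusted limma p of 0.0434 and an adjusted p of 0.765, and it ran from -0.67 to -0.40 when 1 culture was left out.

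HDAC2 read 9.03, 9.61 and 9.25 in control and 9.75, 10.22 and 9.47 in EP300 cultures. EP300 replicate 3 lay inside the control range. The difference was 0.51 ± 0.26 (SE), 1.43-fold higher, with a 95% interval of -0.08 to 1.10 (limma adjusted p = 0.792), and was 0.31 without EP300 replicate 2. HDAC1 read 8.06, 8.41 and 7.81 in control and 8.61, 8.24 and 8.90 in EP300 cultures. Here EP300 replicate 2 lay inside the control range, and the difference was 0.49 ± 0.26 (SE), 1.40-fold higher, with an interval from -0.08 to 1.06 and the same adjusted p of 0.792. The cultures that ranked highest were not the same for the 2 genes.

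HDAC8, the remaining class I enzyme, read 4.62, 5.25 and 4.88 in control and 5.13, 5.32 and 5.42 in EP300 cultures. Control replicate 2 lay among the EP300 values, and the difference was 0.37 ± 0.23 (SE), with an interval from -0.15 to 0.89, and was 0.22 without control replicate 1. HDAC6, which is mostly cytoplasmic and deacetylates tubulin, read 5.85, 4.77 and 5.64 in control and 5.95, 5.83 and 5.56 in EP300 cultures. Its difference of 0.36 ± 0.30 (SE) rested on control replicate 2, without which it was 0.03.

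Among the sirtuins, SIRT4, a mitochondrial enzyme, read 3.44, 4.02 and 3.37 in control and 3.15, 3.36 and 3.26 in EP300 cultures. The groups did not overlap, though only by 0.01 between the nearest cultures as rounded. The difference of -0.35 ± 0.24 (SE) was -0.15 without control replicate 2. SIRT7, a nucleolar enzyme, read 3.42, 3.68 and 3.30 in control and 3.43, 3.01 and 3.14 in EP300 cultures, for a difference of -0.28 ± 0.22 (SE), or -0.17 without control replicate 2. The means of SIRT4 and SIRT7 over all arrays were below the lower quartile of each array, so no fold is given.

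SIRT1, the nuclear sirtuin that deacetylates p53 and EP300 among other proteins, read 6.99, 7.27 and 6.53 in control and 7.09, 6.61 and 6.52 in EP300 cultures. The groups overlapped broadly, and the difference was -0.19 ± 0.26 (SE), or -0.02 without control replicate 2. The other 6 erasers were HDAC10 (0.29), HDAC11 (0.03), SIRT2 (-0.14), SIRT3 (0.0017), SIRT5 (-0.09) and SIRT6 (0.09), with unadjusted limma p from 0.381 to 0.995. HDAC10, HDAC11 and SIRT6 had means below the lower quartile of each array.

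Among the 20 readers, 9 were higher and 11 lower, with a median difference of -0.04. An unadjusted limma p below 0.05 was found for 0 of them, against 6.37% of all named genes. BAZ1B and BAZ2A were the 2 readers (10%, against 12.2% of all named genes) whose groups did not overlap, in opposite directions. BAZ1B encodes WSTF, a bromodomain subunit of ISWI remodelling complexes and a kinase for histone H2A.X. It read 9.27, 9.11 and 8.91 in control and 9.43, 9.48 and 9.66 in EP300 cultures. All EP300 cultures lay above all control cultures, and the difference was 0.43 ± 0.21 (SE), 1.34-fold higher, with an interval of -0.04 to 0.90 (limma adjusted p = 0.789). BAZ2A encodes TIP5, the large subunit of the nucleolar remodelling complex that silences ribosomal RNA genes. It read 6.60, 6.61 and 6.83 in control and 6.46, 6.19 and 6.28 in EP300 cultures. The difference was -0.37 ± 0.21 (SE), 1.29-fold lower, with an interval of -0.83 to 0.09 (limma adjusted p = 0.809).

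BRPF3, a scaffold of KAT7 and KAT6 complexes, read 6.04, 5.44 and 6.19 in control and 6.67, 5.90 and 6.28 in EP300 cultures. The groups overlapped, and the difference of 0.39 ± 0.28 (SE) was 0.17 without control replicate 2. Its interval from -0.24 to 1.02 was the 1 among readers that reached beyond 2-fold. ZMYND11, a reader of histone H3.3 methylated at lysine 36 that also carries a bromodomain, read 7.84, 7.02 and 7.22 in control and 7.91, 7.33 and 7.80 in EP300 cultures. Its difference was 0.32 ± 0.27 (SE), with control replicate 1 as high as the EP300 cultures. It was 0.15 without control replicate 2 and 0.56 without control replicate 1. CECR2, a remodelling subunit, read 2.92, 2.99 and 2.41 in control and 3.51, 2.85 and 2.78 in EP300 cultures, below the lower quartile of each array in mean, and its difference of 0.27 ± 0.27 (SE) was 0.04 without EP300 replicate 1.

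BAZ1A, which encodes the ACF1 subunit of ISWI complexes, read 7.84, 8.32 and 8.36 in control and 7.79, 7.68 and 8.18 in EP300 cultures. Control replicate 1 lay within the EP300 values, and the difference of -0.29 ± 0.24 (SE) ran from -0.46 (without control replicate 1) to -0.19 (without EP300 replicate 2). PHIP, a ubiquitin ligase adaptor with bromodomains, read 8.42, 8.60 and 9.47 in control and 8.55, 8.52 and 8.65 in EP300 cultures. Control replicate 3 alone was high, and without it the difference of -0.25 ± 0.29 (SE) was 0.07. BRD8, a NuA4 subunit, read 7.86, 7.78 and 8.06 in control and 7.74, 7.81 and 7.80 in EP300 cultures, for a difference of -0.12 ± 0.20 (SE), or -0.04 without control replicate 3.

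**Figure D3:**
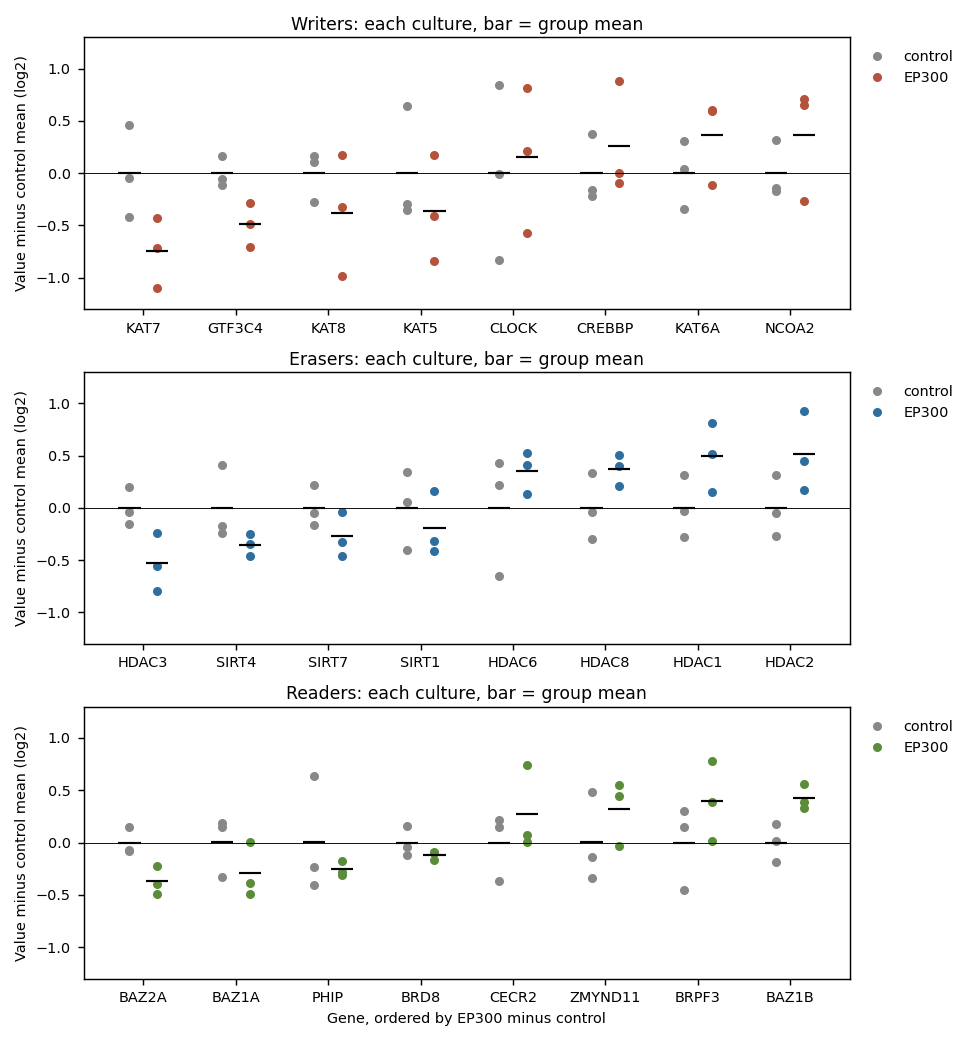
Each point is 1 culture, as its log2 value minus the control mean of the same gene, with control in grey, EP300 in colour and bars at the group means, for the 24 members named by rule. The EP300 points of KAT7, GTF3C4, HDAC3, SIRT4 and BAZ2A all lie below the control points of the same gene and those of BAZ1B above.

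The other 12 readers differed by -0.12 to 0.19, with unadjusted limma p from 0.543 to 0.907. BRD2 (-0.12) and BRD3 (-0.05) belong to the BET family, which binds acetylated histone H4 and recruits elongation factors. BRD7 (0.19) and BRD9 (0.03) are subunits of 2 forms of the SWI/SNF remodeller, and BRD1 (0.04) and BRPF1 (-0.07) are scaffolds of MYST complexes. TRIM24 (-0.11) and TRIM33 (-0.04) join a bromodomain to a ubiquitin ligase. ATAD2 (0.11) is an ATPase linked to E2F and MYC targets, SP100 (-0.04) a component of nuclear bodies, and BAZ2B (0.12) and BRWD1 (-0.08) chromatin readers. The second probe set of BAZ2B gave 0.16 ± 0.39 (SE), close to the 0.12 ± 0.30 (SE) of the one used.

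TRIM33 was the most repeatable member, with 8.01, 7.89 and 7.89 in control and 7.92, 7.81 and 7.93 in EP300 cultures and a pooled SD of 0.0697. Its limma SE of 0.20 was drawn up toward the variance of all probe sets, and its 95% interval ran from -0.49 to 0.40. Over the 49 members the pooled SD had a median of 0.358, against 0.312 over all named genes. The difference between groups was at least as large as the pooled SD for 13 members (26.5%), against 31.3% of all named genes. Most differences were thus smaller than the spread between cultures of 1 group.

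The level of each class was also described by culture, without a test. Each member's values were centred on its own mean over the 6 arrays, and the median over the members of a class was taken for each culture. For writers this gave -0.03, 0.02 and -0.04 in the control cultures and -0.09, -0.13 and 0.18 in the EP300 cultures. For erasers it gave 0.16, 0.07 and -0.19 in control and 0.14, -0.03 and -0.10 in EP300 cultures, and for readers -0.05, -0.08 and 0.10 in control and 0.02, -0.18 and 0.01 in EP300 cultures. In each class the ranges of the groups overlapped. The pooled SD of these medians between cultures of a group was 0.12 for writers, 0.15 for erasers and 0.11 for readers. A smaller shared shift of a class could not be seen.

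Many members have a paralog in the list, so 11 pairs were compared within each array. Not all pairs share a complex, as with BRD7 and BRD9. The pairs were chosen after the values were seen. The members of a pair differed in the same direction in 7 pairs and in opposite directions in 4. BAZ1A minus BAZ1B was -0.92 ± 0.46 (SD, n = 3) in control and -1.64 ± 0.15 (SD, n = 3) in EP300 cultures, a change of -0.72 with an exact two-sided permutation p of 0.1. This was the 1 pair of 11 whose groups did not overlap, and its p adjusted over the 11 pairs was 0.978. For single genes the groups did not overlap in 12.2% of all named genes. As the pairs were chosen from these values, the permutation p-values only describe them. Without 1 culture the change ran from -0.97 (without control replicate 1) to -0.53 (without control replicate 3). HDAC1 minus HDAC2 changed by -0.02, with an SD of 0.23 in control and 0.71 in EP300 cultures. For KAT6A minus KAT6B the change was 0.43 (exact p = 0.5), for BAZ2A minus BAZ2B -0.49 (exact p = 0.3) and for BRPF1 minus BRPF3 -0.47 (exact p = 0.3).

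**Figure D4:**
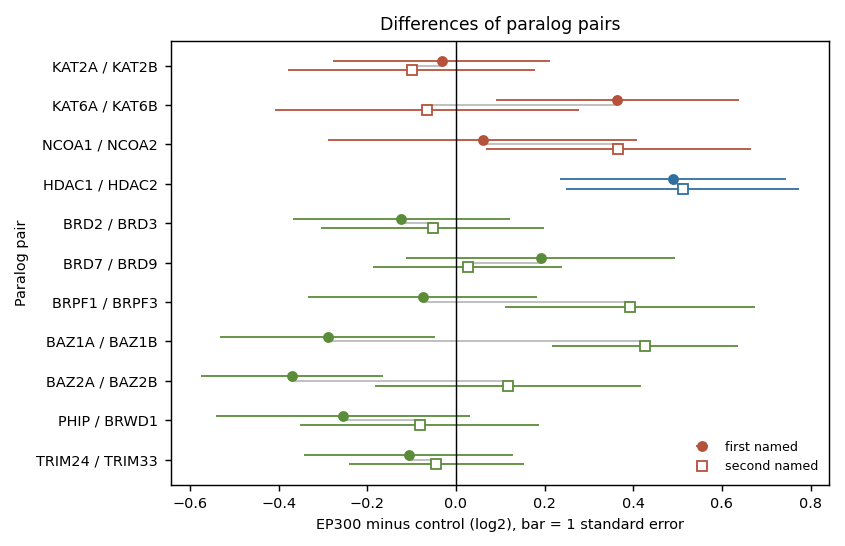
For each of 11 paralog pairs the log2 differences (EP300 minus control) of the first named gene (filled circle) and the second (open square) are plotted, with bars of 1 limma standard error. HDAC1 and HDAC2 lie together at 0.49 and 0.51, and BAZ1A and BAZ1B lie apart at -0.29 and 0.43.

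Genes around the writers and erasers were taken from 5 lists of complex subunits and cofactor supply, 78 genes in all, of which 73 were measured. By limma 0 of the 73 passed the adjusted threshold. At an unadjusted limma p below 0.05 there were 3 (4.11%), all lower, and the groups did not overlap for 9 (12.3%), both to be read against 6.37% and 12.2% of all named genes. The median difference over the 73 was 0.04.

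Of 21 corepressor subunits and class IIa deacetylases, 10 were higher and 11 lower, with a median of -0.0029. MTA3, a NuRD subunit, read 7.09, 7.07 and 7.34 in control and 6.62, 6.24 and 6.58 in EP300 cultures. The groups were apart by more than the range within either, and the difference was -0.69 ± 0.22 (SE), 1.61-fold lower, with an unadjusted limma p of 0.0101 and an adjusted p of 0.735. SIN3A, the scaffold of the SIN3 complex, was chosen after its value was seen, and its difference was -0.53 with an unadjusted limma p of 0.0333. In the upward direction HDAC7 differed by 0.49 ± 0.28 (SE), which was 0.25 without EP300 replicate 3.

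Of 13 NuA4 subunits, 6 were higher and 7 lower, with a median of -0.05. MEAF6, which NuA4 shares with the KAT7 and KAT6 complexes, read 7.09, 7.08 and 6.53 in control and 6.03, 5.92 and 6.61 in EP300 cultures. EP300 replicate 3 overlapped control replicate 3, and the difference was -0.72 ± 0.27 (SE), with an unadjusted limma p of 0.0231 and an adjusted p of 0.746. YEATS4, a reader of acetylated histones outside the bromodomain family, differed by 0.58 ± 0.34 (SE), which was 0.19 without control replicate 1.

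Of 16 SAGA and ATAC subunits, which partner KAT2A and KAT2B, 11 were higher and 5 lower, with a median of 0.14. ENY2, a subunit of the SAGA deubiquitinase module, read 10.59, 10.50 and 10.80 in control and 10.97, 11.58 and 10.93 in EP300 cultures. Its difference of 0.53 ± 0.24 (SE) was 0.32 without EP300 replicate 2. YEATS2, the ATAC subunit that binds acylated histones, read 9.76, 9.45 and 9.34 in control and 9.11, 8.39 and 9.32 in EP300 cultures. Its difference of -0.57 ± 0.28 (SE) was -0.30 without EP300 replicate 2. The groups were apart for each of these genes, and the limma adjusted p was 0.775 and 0.787.

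Of 12 subunits of the MOZ, HBO1, MSL and NSL complexes, 8 were higher and 4 lower, with a median of 0.08. JADE3, a scaffold of KAT7 complexes, differed by -0.63 ± 0.32 (SE), which was -0.35 without EP300 replicate 3, and MCRS1, an NSL subunit, by 0.29 ± 0.25 (SE), which was 0.07 without the same culture. Of 11 genes of acetyl-CoA and NAD supply, 6 were higher and 5 lower, with a median of 0.03. SLC25A1, the mitochondrial citrate carrier that feeds cytosolic acetyl-CoA, differed by -0.47 ± 0.29 (SE), or -0.20 without EP300 replicate 1. NADK, which converts NAD to NADP, read 6.21, 5.85 and 5.92 in control and 6.27, 6.61 and 6.23 in EP300 cultures, for a difference of 0.37 ± 0.22 (SE).

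Promoters of the 3 members with an unadjusted p below 0.05 are shown as the regulatory sequence of the genes with the smallest p, because all 3 were lower. They are the 250 bases upstream of the start of each gene in RefSeq (GRCh38.p14), written 5′ to 3′ on the strand of the gene. The KAT7 stretch is chr17:49788431-49788680 on the plus strand, that of GTF3C4 chr9:132669785-132670034 on the plus strand and that of HDAC3 chr5:141636850-141637099 on the minus strand. Capitals mark matches, on either strand, to 6 motifs: the GC box GGGCGG, the CCAAT box CCAAT, the ETS motif CCGGAAG, the E-box CACGTG, the cyclic AMP response element TGACGTCA and the TATA box TATAAA.
KAT7: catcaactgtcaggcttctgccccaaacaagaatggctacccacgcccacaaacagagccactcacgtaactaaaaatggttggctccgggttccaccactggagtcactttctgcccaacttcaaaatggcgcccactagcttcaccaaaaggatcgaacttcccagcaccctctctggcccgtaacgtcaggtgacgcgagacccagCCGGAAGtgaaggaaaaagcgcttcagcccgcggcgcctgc
GTF3C4: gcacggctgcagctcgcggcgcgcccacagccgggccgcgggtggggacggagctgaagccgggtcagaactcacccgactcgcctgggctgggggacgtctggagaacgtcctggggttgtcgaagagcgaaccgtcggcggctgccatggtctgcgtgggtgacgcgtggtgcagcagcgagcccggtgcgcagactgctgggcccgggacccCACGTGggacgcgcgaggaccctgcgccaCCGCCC
HDAC3: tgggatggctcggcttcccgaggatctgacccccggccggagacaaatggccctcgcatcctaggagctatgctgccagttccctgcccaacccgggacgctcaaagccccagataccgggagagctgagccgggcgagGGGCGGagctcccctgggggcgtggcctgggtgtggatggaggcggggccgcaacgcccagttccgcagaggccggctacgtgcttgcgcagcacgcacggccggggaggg

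KAT7 held 1 ETS match, GTF3C4 1 E-box and 1 GC box, and HDAC3 1 GC box, so no motif was found in all 3. A RefSeq promoter was matched for 42 of the 49 members and for 15842 protein-coding genes. The GC box was found in 28 of 42 members (66.7%) and in 56% of all. The CCAAT box was found in 8 members (19%) against 34.5%, the ETS motif in 7 (16.7%) against 11.8%, the E-box in 3 (7.14%) against 7.84% and the cyclic AMP response element in 1 (2.38%), SIRT4, against 2.32%. The TATA box was found in 0 of 42 members and in 9.23% of all. The members' stretches held a median of 24 CG dinucleotides, against 17 over all, and KAT7 held 14, GTF3C4 32 and HDAC3 22. These matches describe letters in the window and were not tested.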

How the data were processed

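Total RNA was isolated by the Qiagen RNeasy method and biotin-labelled by the Affymetrix WT PLUS kit, per the labels' protocols. The authors deposited 1 value per probe set and array for 21448 probe sets, taken as log2 because they ran from 1.79 to 19.93 with close medians, a scale that no label states. Partek 6.6 is named per the submitters' processing notes, while its settings, and the annotation's build, are not given in the sources cited. The table holds no detection calls, and the number of arrays limits the precision.

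The difference, EP300 minus control, was fitted with limma 3.58.1 (lmFit, eBayes) in R 4.3.3 on all 6 arrays with no filter or block, with Benjamini-Hochberg adjustment over 21448 probe sets and a threshold of 0.05. Symbols came from the platform annotation, and 49 of 49 members carried the same symbol in RefSeq. Members and lists were chosen with earlier results of these data known. Named genes were CREBBP, the 4 members of each class with the smallest p in each direction, and 1 gene in each direction from each of the 5 partner lists. Exact permutation tests used scipy 1.17.1. Alternatives were quantile normalization, median centring, probe sets above the median level, a variance trend with a robust fit, averaged probe sets, constant probe sets left out, array weights, a replicate block and leaving out each culture.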

Additional observations from a re-analysis of the deposited data

How the results depend on the processing

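By limma, the count of writers, erasers, readers and partner genes past the threshold was 0 in each of the 14 alternative settings. Over all probe sets, 4 of 21448 passed with the variance trend and robust fit, and 0 in every other alternative. Of the 34 genes named by rule, 31 kept their direction in every alternative that held them. Apart from CREBBP they were named for the smallest p in their direction in the main fit, so a kept direction was likely beforehand. The filters, the variance trend, averaged probe sets and the replicate block returned the same difference for these genes and could not turn it. Only 13 of the 14 held KAT8, KAT5, SIRT4, SIRT7 and CECR2, which were not among the probe sets above the median level. The other 3 turned when 1 culture was left out. CREBBP ran from -0.0517 (without EP300 replicate 3) to 0.446 (control replicate 3). CLOCK ran from -0.264 (control replicate 3), with -0.175 without EP300 replicate 3, to 0.572 (control replicate 2). PHIP ran from -0.458 (control replicate 1) to 0.0659 (control replicate 3). The median of the erasers ran from -0.0457 (without control replicate 2) to 0.17 (without control replicate 1) when 1 culture was left out, against 0.0145 with all. That of the readers ran from -0.0460 (without control replicate 1) to 0.0310 (without EP300 replicate 2), against -0.0425 with all. The writers' median stayed negative, from -0.0803 (without control replicate 1) to -0.0347 (without control replicate 3). The number of members at an unadjusted limma p below 0.05 was 3 in the full data, 1 with the replicate block (KAT7), and 0 to 4 without 1 culture: 0 without EP300 replicate 1, 1 without control replicate 1 (HDAC10, chosen after its value was seen) or control replicate 3, and 4 without control replicate 2 or EP300 replicate 2. Over all 21448 probe sets the count was 1399 in the full data and 1295 with the replicate block. Without 1 culture it was 1225 (EP300 replicate 3) to 1383 (control replicate 3). Whether the members' counts differ from these was not tested. The count among the 39 members above the array medians and the paralog pairs were chosen after seeing the data. Same-numbered cultures share a number in their titles, which state no pairing. Correlations of their deviations over the probe sets that varied ran from -0.009 to -0.002. A pairing that touched only some genes could not be seen this way. No call changed with the replicate block. Signal over background is unknown for all 49 members, of which 10 lay below the array medians.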
